A study of Mus musculus with 15 samples.

Results

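The 37 genes described here encode enzymes that make, salvage or interconvert purine and pyrimidine nucleotides. They were listed by symbol for their place in these pathways, but with earlier results of these data known, as were the other lists used here. They are 37 of the 53380 rows of each count table (53379 mouse genes and the human MYC transgene). All 37 passed the low-count filter, which left 14485 genes for the tests. The cells were of mouse T-ALL, a leukemia of T cell precursors, and came from tumors of EμSRα-tTA/tet-O-MYC mice on the FVB/N background. In this model a tetracycline-controlled activator, expressed in lymphoid cells, drives a human MYC transgene, and doxycycline shuts the transgene off. The libraries were made from polyA RNA of cells at 0 h (mock treated, MYC on) and after 2, 4, 8 and 24 h of doxycycline (MYC off), 3 libraries per time and 15 in all. All groups carry both transgenes and differ in the length of doxycycline exposure, and no group received doxycycline without a MYC transgene to switch off. Whether the 3 libraries of a time came from separate cultures, and whether the cells were 1 clone, was not stated in the labels or methods. The p-values thus measure the spread between these libraries, which may be technical.

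Cells build purines stepwise on a sugar phosphate, phosphoribosyl pyrophosphate (PRPP), until the first complete purine, inosine monophosphate (IMP), is reached, and IMP is then turned into AMP or GMP. Pyrimidines are assembled as a free ring that is joined to PRPP to give UMP, from which CTP is made. Ribonucleotide reductase converts ribonucleotides to the deoxyribonucleotides (dNTPs) of DNA, thymidylate is made from dUMP, and salvage enzymes re-use free bases and nucleosides. MYC is known to bind and activate many genes of these pathways in proliferating lymphoid cells, through the E-box sequence CACGTG that it recognizes with its partner MAX.

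The MYC transgene matched the labels: it was at 3.40, 2.94 and 3.54 CPM at 24 h, against 2079, 2017 and 1975 CPM at 0 h, and had a log2 fold change of -6.35 already at 2 h against 0 h. Library totals lay between 25852711 and 27102318 counts. Levels are given as CPM, counts divided by the library's total after scaling by the trimmed mean of M values (TMM). No pair of replicates differed by less than sampling noise. Library 3 of 24 h stood apart from the other 24 h libraries: the chi-square of counts over genes, divided by its degrees of freedom, was 77.7 and 85.4 in the pairs with it and 2.81 to 16.5 in all other replicate pairs. It was the lowest 24 h library for 30 of the 37 genes and the highest for 6, so counts and some calls are also given without it. Calls are those of the fit with all libraries unless stated otherwise, and some of them may differ without it. The 9 T cell markers summed to 9031 to 9545 CPM at 24 h, against 5331 to 5408 CPM at 0 h. The B cell markers summed to at most 0.37 CPM and the erythroid markers to at most 0.08 CPM at any time, the 3 granulocyte markers were at 0 CPM in all libraries, and the 4 macrophage markers summed to 5.14 to 9.94 CPM. The 4 stroma and endothelium markers summed to 119 to 142 CPM at 24 h, against 56.5 to 59.8 CPM at 0 h, most of it Pecam1 (125 CPM at 24 h, against 56.6 CPM at 0 h on average), while Col1a1 averaged 0.0784 CPM at 24 h and 0.0132 CPM at 0 h. Their part in the results below was not tested. These are bulk libraries, in which fewer cells that express a gene and less of its RNA per cell cannot be told apart. Ribosomal protein genes took 10.6% to 11.1% of all counts at 0 h and 5.75%, 6.11% and 3.68% in the 24 h libraries in order. The part of this in the scaling and in the TPM levels was not tested. Where library totals replaced TMM, the typical (median) tested gene was at 0.35 on the log2 scale at 24 h against 0 h, where TMM gave 0.07. Changes are thus relative to the typical gene.

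After MYC was turned off, most genes of purine and pyrimidine ring synthesis had fallen by 24 h, at different speeds. The 10 genes grouped here under deoxynucleotide supply rose or did not pass the test. At 24 h against 0 h, 22 of the 37 genes fell and 9 rose at a Benjamini-Hochberg adjusted p under 0.01 in edgeR's quasi-likelihood test, where 28.1% of all tested genes fell and 30.7% rose. Without the third 24 h library 22 fell and 11 rose, and over all tested genes 4479 fell and 4673 rose (4076 and 4443 with it). Of the 17 genes of PRPP synthesis, the rings and the steps to AMP, GMP and CTP, 16 fell and none rose. Of the 10 genes of deoxynucleotide supply (ribonucleotide reductase, thymidylate and dUTP enzymes, deoxynucleoside kinases), 6 rose and none fell. Dctd, the dCMP deaminase, was counted outside these 10 genes and fell, as given with the related genes below. The median log2 fold change was -1.56 for the first group and 0.58 for the second, beside 0.07 over all tested genes.

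The changes built up in steps. At 2 h against 0 h, 8 genes fell (8.59% of all tested genes fell) and 3 rose (6.6% of all rose). The 8 were Ppat, Gart, Atic, Impdh1, Dhodh, Umps, Ctps and Uck2, and the 3 were Rrm1, Rrm2 and Dck. At 4 h, 19 fell and 6 rose against 0 h (19.9% and 18.1% of all), and at 8 h, 21 fell and 8 rose (25.1% and 25.3% of all). The same 19 genes that fell at 4 h were also lower at 8 and 24 h, and no gene was called in opposite directions against 0 h at different times. Over all 37 genes the median log2 fold change against 0 h was -0.19, -0.38, -0.58 and -0.80 at the 4 times in order, beside 0.01, 0.08, 0.09 and 0.07 over all tested genes. The comparisons with 0 h share the 0 h libraries. The 2 h count depended on the fit: without the third 24 h library 18 genes fell at 2 h, and 18 fell when 0 h and 2 h were fitted alone. Over all tested genes the falls at 2 h were 1244 in the fit of all libraries, and 2180 and 2872 in these fits. Without the third 24 h library 10 of the 37 genes rose at 4 h and 11 at 8 h. Over all tested genes the rises then went from 2629 to 3898 at 4 h and from 3665 to 4654 at 8 h.

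**Figure D1:**
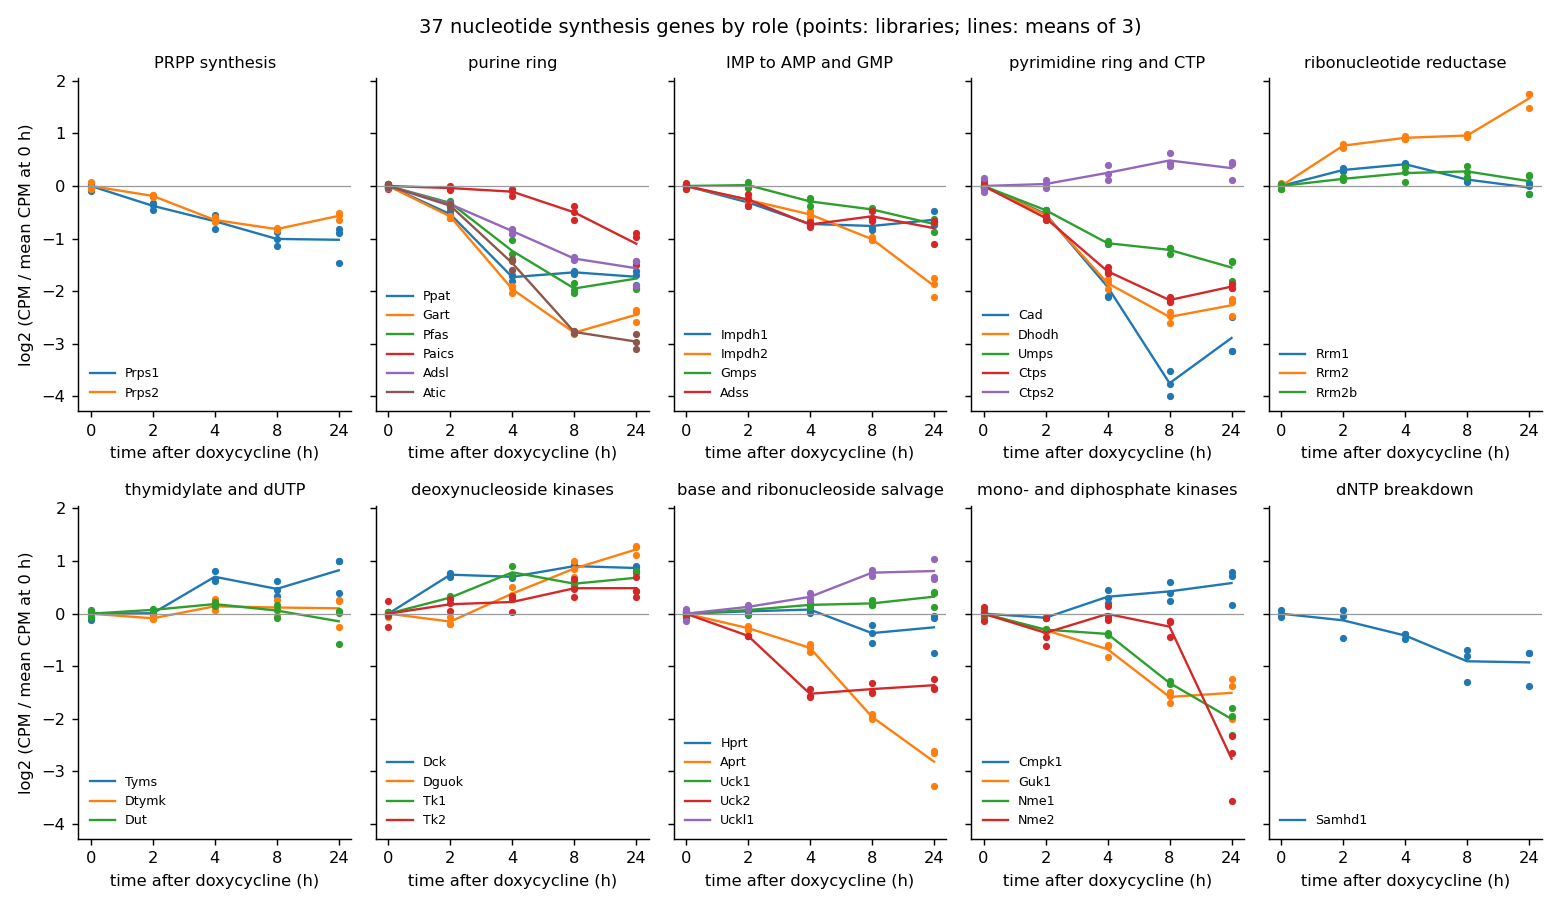
Time courses of the 37 genes in 10 panels by role; the x axis is hours after doxycycline (evenly spaced, not to scale) and the y axis is the log2 of CPM over the gene's mean CPM at 0 h, with points for libraries and lines through means of 3. At 24 h the genes of the purine and pyrimidine ring panels lie below 0 apart from Ctps2; Cad reaches its lowest level at 8 h, and Rrm2 and the deoxynucleoside kinases run above 0 at 24 h.

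Between neighbouring times, falls outnumbered rises up to 8 h. At 4 h against 2 h, 14 genes fell and 3 rose (13% and 7.72% of all tested genes), and at 8 h against 4 h, 12 fell and 2 rose (6.97% and 5.73% of all). The 12 include Rrm1, whose fall in this step was lost in 8 of 24 alternative settings. Same-numbered libraries of 4 and 8 h deviated together, and with the replicate number as a block in a fit of the 0 to 8 h libraries, 18 fell and 5 rose in this step (16 and 3 in that fit without the block). Over all tested genes 2469 fell and 2176 rose in that fit with the block and 1832 and 1747 without it. In the fit of all libraries 1010 of all tested genes fell and 830 rose. At 24 h against 8 h, 7 genes fell and 6 rose (17.3% and 20.8% of all). Among the genes below their 0 h level at 24 h, 7 were lower at 24 h than at 8 h (Paics, Impdh2, Gmps, Umps, Aprt, Nme1 and Nme2) and 4 were higher at 24 h than at 8 h (Prps2, Gart, Cad and Ctps). The last step was the least stable: without the third 24 h library 7 fell and 13 rose, with library totals 5 fell and 10 rose, and in a fit of 8 h and 24 h alone 4 fell and 1 rose. The counts over all tested genes moved as well, from 2506 falls and 3014 rises in the fit of all libraries. They were 2623 and 3097 without that library, 1596 and 4636 with library totals, and 1137 and 795 in the fit of 8 h and 24 h alone.

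To show what lies upstream of the genes, the window of 300 bases around the transcript start (250 before it, 50 after it) was read from RefSeq for GRCm38.p6 and searched on both strands for the E-box CACGTG and for the E2F motif TTTNNCGC, which can share no more than 1 base. A window was found for 34 of the 37 genes (Pfas, Dhodh and Rrm2b are named only). The E-box was in the windows of 6 genes (17.6%), beside 8.09% of all 27025 genes with a window, and the E2F motif in those of 5 genes (14.7%), beside 5.93% of all. Over the 17491 protein-coding genes with a window the shares were 8.91% and 7.16%. The 6 windows with an E-box, in capitals, are printed 5′ to 3′ on the gene's strand, together with that of Ppat, whose start lies beside that of Paics:
Atic, chr1:71556906-71557205, plus strand: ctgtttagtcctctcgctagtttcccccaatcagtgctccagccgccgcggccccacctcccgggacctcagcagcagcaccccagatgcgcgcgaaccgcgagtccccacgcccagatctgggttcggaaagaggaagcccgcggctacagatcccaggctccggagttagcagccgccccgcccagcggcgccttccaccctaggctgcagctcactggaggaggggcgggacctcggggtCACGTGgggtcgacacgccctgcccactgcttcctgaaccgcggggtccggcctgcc
Impdh2, chr9:108560186-108560485, plus strand: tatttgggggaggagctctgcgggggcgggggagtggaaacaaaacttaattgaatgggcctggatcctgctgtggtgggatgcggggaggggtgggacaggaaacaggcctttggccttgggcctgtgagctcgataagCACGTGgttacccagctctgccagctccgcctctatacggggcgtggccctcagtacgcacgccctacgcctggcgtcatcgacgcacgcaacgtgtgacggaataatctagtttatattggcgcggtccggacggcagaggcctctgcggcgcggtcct
Nme1, chr11:93968223-93968522, minus strand: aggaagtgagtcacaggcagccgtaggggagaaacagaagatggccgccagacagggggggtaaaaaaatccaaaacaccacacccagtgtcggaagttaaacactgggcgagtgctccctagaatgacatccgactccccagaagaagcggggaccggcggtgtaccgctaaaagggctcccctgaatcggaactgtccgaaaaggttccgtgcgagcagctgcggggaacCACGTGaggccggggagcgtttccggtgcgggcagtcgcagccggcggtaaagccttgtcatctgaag
Paics, chr5:76951052-76951351, plus strand: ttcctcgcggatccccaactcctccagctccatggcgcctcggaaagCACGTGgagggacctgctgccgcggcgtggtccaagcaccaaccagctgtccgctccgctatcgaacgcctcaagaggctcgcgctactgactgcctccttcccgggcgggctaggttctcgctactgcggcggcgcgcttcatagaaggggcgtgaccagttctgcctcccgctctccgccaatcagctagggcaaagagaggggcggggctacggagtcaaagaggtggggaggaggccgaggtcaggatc
Tyms, chr5:30073576-30073875, minus strand: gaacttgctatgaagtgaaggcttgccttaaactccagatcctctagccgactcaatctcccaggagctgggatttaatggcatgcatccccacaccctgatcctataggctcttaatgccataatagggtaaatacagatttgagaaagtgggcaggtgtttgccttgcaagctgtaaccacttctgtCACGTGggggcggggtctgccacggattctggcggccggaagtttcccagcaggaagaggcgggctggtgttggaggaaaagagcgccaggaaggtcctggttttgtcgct
Dtymk, chr1:93801885-93802184, minus strand: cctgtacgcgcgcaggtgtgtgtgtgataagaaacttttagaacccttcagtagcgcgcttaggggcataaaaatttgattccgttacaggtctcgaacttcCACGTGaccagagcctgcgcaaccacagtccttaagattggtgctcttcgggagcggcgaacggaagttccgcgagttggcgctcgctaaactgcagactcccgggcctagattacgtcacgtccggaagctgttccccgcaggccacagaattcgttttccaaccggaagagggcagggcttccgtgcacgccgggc
Ppat, chr5:76951529-76951828, minus strand: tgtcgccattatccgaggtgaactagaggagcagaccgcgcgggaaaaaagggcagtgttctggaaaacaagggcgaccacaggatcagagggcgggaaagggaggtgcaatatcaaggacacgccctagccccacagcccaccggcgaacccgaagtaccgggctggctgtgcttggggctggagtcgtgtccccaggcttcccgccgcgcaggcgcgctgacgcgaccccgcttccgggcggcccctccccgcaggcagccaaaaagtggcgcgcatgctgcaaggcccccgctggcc

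Counted from the transcript start, the first base of the E-box lay at -7 in Atic, -18 in Nme1, -61 in Tyms, -110 in Impdh2, -148 in Dtymk and -203 in Paics. The second RefSeq start of Nme1 has an E-box of its own at -29. These genes did not move together: at 24 h against 0 h the log2 fold change was -2.96 for Atic, -2.001 for Nme1, -1.90 for Impdh2 and -1.10 for Paics, which all fell, and 0.82 for Tyms, which rose, while Dtymk did not pass the test (0.10 ± 0.11, adjusted p = 0.432). The E2F motif was in the windows of Nme1, Ppat, Prps1, Prps2 and Tyms. Cad, Gart and Ctps, with log2 fold changes of -2.89, -2.45 and -1.91, had neither motif in this window.

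PRPP synthetases make the sugar phosphate on which purines are built and to which the pyrimidine ring is joined, and both genes measured fell. Prps1 was at 134, 142 and 90.4 CPM at 24 h, against 233, 252 and 259 CPM at 0 h, a log2 fold change (± SE) of -1.02 ± 0.13 (adjusted p = 4.21e-06). The third 24 h library was the lowest, and the times did not overlap. Prps2 was at 113, 117 and 106 CPM at 24 h, against 160.5, 163 and 175 CPM at 0 h, a smaller change of -0.57 ± 0.058 (adjusted p = 3.30e-07), and its lowest level was at 8 h (94.0 ± 1.22 CPM, SD, n = 3). Neither gene was called at 2 h against 0 h (adjusted p = 0.0442 for Prps1 and adjusted p = 0.0245 for Prps2).

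All 6 genes of the purine ring fell, but at different speeds. Ppat, which encodes the amidotransferase of the first committed step, was at 256, 262 and 267 CPM at 0 h, 172, 189 and 181 CPM at 2 h and 79.9, 81.1 and 75.2 CPM at 4 h. It was at 84.9, 82.2 and 84.6 CPM at 8 h and 80.7, 85.4 and 71.2 CPM at 24 h. It had thus reached its low level at 4 h. The log2 fold change against 0 h was -1.73 ± 0.069 (adjusted p = 1.86e-11) at 4 h and -1.73 ± 0.069 (adjusted p = 6.46e-12) at 24 h. The step between 8 and 24 h did not pass (-0.09 ± 0.068, adjusted p = 0.307). Gart, a trifunctional enzyme of 3 later steps, was at 513, 519 and 526 CPM at 0 h, 348, 351 and 342 CPM at 2 h and 138, 135 and 127 CPM at 4 h. It was at 73.9, 74.7 and 76.8 CPM at 8 h and 98.6, 101 and 85.9 CPM at 24 h. It fell at each of the steps to 8 h, where 14.5% of its 0 h level was left. It was then higher at 24 h than at 8 h (0.34 ± 0.065, adjusted p = 4.97e-04), a call that was lost when these times were fitted alone. Atic, which closes the purine ring, had the largest fitted change of the 37 genes at 24 h, followed by Cad; without the third 24 h library Cad came first, at -3.14, against -2.89 for Atic. Its level was 635, 654 and 626 CPM at 0 h, 489, 503 and 484 CPM at 2 h and 237, 244 and 212 CPM at 4 h. It was at 94.9, 92.6 and 92.2 CPM at 8 h and 90.3, 81.4 and 74.5 CPM at 24 h. The log2 fold change at 24 h was -2.96 ± 0.077 (adjusted p = 8.54e-14). Its 2 h call was lost without the third 2 h library (adjusted p = 0.0101).

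Paics, which encodes a pair of middle steps of the ring in 1 protein, was the last of the 6 to be called. Its level was 566, 598 and 600.2 CPM at 0 h, 559, 587 and 571 CPM at 2 h and 518, 552 and 567 CPM at 4 h. It was at 376, 417 and 454 CPM at 8 h and 316, 299 and 209 CPM at 24 h. At 4 h, when Ppat was at 30.1% of its 0 h level, Paics was at 92.7% and overlapped the 0 h libraries (-0.11 ± 0.12, adjusted p = 0.455). In a fit of the 0 to 8 h libraries with the replicate number as a block, this small difference passed (-0.17, adjusted p = 0.00166). It fell at 8 h (-0.50 ± 0.12, adjusted p = 0.00157; lost with upper-quartile scaling) and at 24 h (-1.10 ± 0.12, adjusted p = 6.23e-07). Ppat and Paics are neighbours that point away from each other on chromosome 5 of GRCm38 (Ppat, chr5:76913249-76951578, minus strand; Paics, chr5:76951307-76967509, plus strand), and 272 exon bases are annotated to both on opposite strands. Whether reads were counted by strand is unknown here, so reads from those bases are uncertain for both genes. Of the other ring genes, Pfas, which adds a nitrogen to the growing ring, averaged 40.2 CPM at 24 h and 136 CPM at 0 h (-1.76 ± 0.12, adjusted p = 3.12e-09). Adsl, which acts in the ring and again in AMP synthesis, averaged 114 CPM at 24 h and 336 CPM at 0 h (-1.56 ± 0.097, adjusted p = 1.07e-09).

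**Figure D2:**
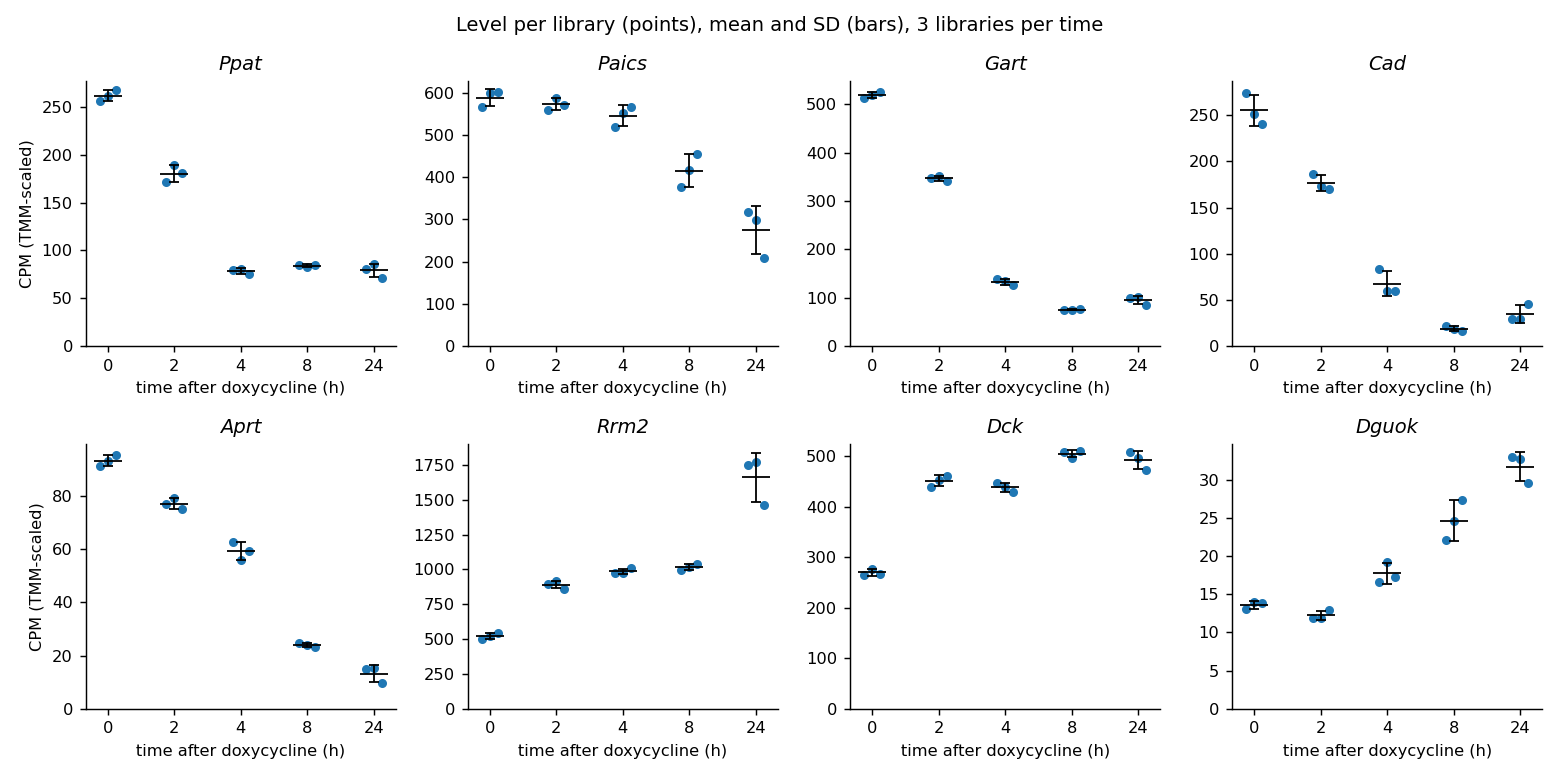
Levels of 8 genes, with TMM-scaled CPM on the y axis (from 0) and hours after doxycycline on the x axis (evenly spaced); points are libraries, and bars are the mean and SD of 3. Ppat is at its low level by 4 h, whereas Paics still overlaps its 0 h level then; Rrm2, Dck and Dguok lie above their 0 h libraries at 24 h.

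Past IMP, the genes of the GMP branch and of the AMP branch all fell. Impdh2, a form of the IMP dehydrogenase that commits IMP to GMP, was at 322, 312 and 324 CPM at 0 h, 262, 273 and 263 CPM at 2 h and 220.0, 209.6 and 229 CPM at 4 h. It was at 156, 158 and 162 CPM at 8 h and 87.4, 95.3 and 74.3 CPM at 24 h. It fell through the last step too, to 26.8% of its 0 h level (-1.90 ± 0.077, adjusted p = 7.82e-12). Impdh1, the other form, was at 129, 128 and 153 CPM at 24 h, against 219, 210.1 and 212 CPM at 0 h. Its change was -0.64 ± 0.077 (adjusted p = 2.10e-06). It had reached this level by 4 h (129.5 ± 6.68 CPM, SD, n = 3), and no later step passed the test. Its call at 2 h against 0 h (-0.31 ± 0.077, adjusted p = 0.00696) was lost in 10 of 24 alternative settings. Gmps, which makes GMP, averaged 137 CPM at 24 h and 226 CPM at 0 h (-0.72 ± 0.069, adjusted p = 1.55e-07). Adss, which starts the AMP branch, averaged 186 CPM at 24 h and 324 CPM at 0 h (-0.80 ± 0.10, adjusted p = 3.30e-06).

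The genes of pyrimidine synthesis fell early and far. Cad, which encodes the trifunctional enzyme of the first 3 steps, was at 274, 251 and 241 CPM at 0 h, 186, 174 and 170.3 CPM at 2 h and 83.5, 60.1 and 59.2 CPM at 4 h. It was at 22.2, 18.7 and 16.03 CPM at 8 h and 28.9, 28.9 and 45.4 CPM at 24 h. At 8 h 7.43% of its 0 h level was left (-3.75 ± 0.18, adjusted p = 9.12e-11), the largest change of any of the 37 genes at any time. It was then higher at 24 h than at 8 h (0.86 ± 0.17, adjusted p = 8.41e-04). The third 24 h library was the highest of its time, and without it the step was 0.61 on the log2 scale and still called. When 8 h and 24 h were fitted alone, most rises of the 37 genes in this step were lost, as given above. At 2 h Cad had a change of -0.53 ± 0.16 (adjusted p = 0.025), with no overlap between 2 h and 0 h, which did not pass the threshold and passed it in 5 of 24 alternative settings, among them DESeq2.

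Dhodh, the mitochondrial enzyme of the fourth step, was at 17.6, 16.9 and 14.0 CPM at 24 h, against 76.98, 78.5 and 78.3 CPM at 0 h. Its change was -0.55 ± 0.086 (adjusted p = 2.29e-04) at 2 h and -2.27 ± 0.092 (adjusted p = 7.02e-12) at 24 h. Umps, which attaches the ring to PRPP and gives UMP, was at 78.0, 77.3 and 59.9 CPM at 24 h, against 203, 211 and 215 CPM at 0 h. Its change was -1.55 ± 0.084 (adjusted p = 2.01e-10). Both had lost part of their level at 2 h, and no library of 2 h or later reached the 0 h range of either gene. Ctps, which makes CTP from UTP, was at 209.8, 217 and 210.2 CPM at 0 h, 140.0, 143 and 135 CPM at 2 h and 72.6, 67.0 and 67.3 CPM at 4 h. It was at 49.4, 46.4 and 45.8 CPM at 8 h and 55.5, 58.0 and 55.6 CPM at 24 h. Its change was -0.61 ± 0.056 (adjusted p = 1.76e-06) at 2 h and -1.91 ± 0.058 (adjusted p = 3.49e-13) at 24 h. Its paralog Ctps2 did not fall and was at 35.6, 37.3 and 43.3 CPM at 0 h, 37.8, 41.7 and 39.8 CPM at 2 h and 41.7, 45.5 and 51.0 CPM at 4 h. It was at 50.2, 52.7 and 59.8 CPM at 8 h and 51.9, 53.4 and 41.7 CPM at 24 h. Ctps2 was higher at 8 h than at 0 h (0.48 ± 0.11, adjusted p = 0.00115), a call that was lost without the second 0 h or the third 8 h library. It did not pass at 24 h (0.34 ± 0.11, adjusted p = 0.0113), where the libraries overlapped, and passed there in 6 of 24 alternative settings.

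Among the genes of ribonucleotide reductase, the enzyme that makes deoxyribonucleotides, the subunits differed. Rrm2, the small subunit that is known to be made in S phase, was at 502, 525 and 545 CPM at 0 h, 896, 916 and 862 CPM at 2 h and 978, 978 and 1009.7 CPM at 4 h. It was at 999, 1021 and 1037 CPM at 8 h and 1753, 1771 and 1460.3 CPM at 24 h. It rose by 2 h (0.77 ± 0.074, adjusted p = 2.48e-06) and again between 8 and 24 h (0.71 ± 0.073, adjusted p = 2.34e-06), to 317% of its 0 h level. The second of these rises belongs to the step whose calls were the least stable. Rrm1, the large subunit, was at 566, 595 and 609.9 CPM at 0 h, 723, 744 and 720.2 CPM at 2 h and 784, 772 and 802 CPM at 4 h. It was at 655, 624 and 648 CPM at 8 h and 614, 589.6 and 530.1 CPM at 24 h. It was higher at 2 h (0.30 ± 0.063, adjusted p = 0.00231; lost in 4 of the settings that leave out 1 library) and at 4 h (0.41 ± 0.063, adjusted p = 5.97e-05), and at 24 h it overlapped the 0 h libraries (-0.03 ± 0.063, adjusted p = 0.684). Rrm2b, the small subunit induced by p53, was at 35.9, 36.7 and 28.7 CPM at 24 h, against 30.5, 32.7 and 31.9 CPM at 0 h and was not called at any time (0.09 ± 0.098, adjusted p = 0.416 at 24 h).

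Of the 3 genes around thymidylate, 1 rose at 24 h, near the 30.7% of all tested genes that rose. Tyms, thymidylate synthase, was at 168, 189 and 191 CPM at 0 h, 179, 187 and 185 CPM at 2 h and 281, 290.0 and 321 CPM at 4 h. It was at 229, 251 and 279.7 CPM at 8 h and 364, 366 and 242 CPM at 24 h. It overlapped its 0 h libraries at 2 h and was then higher, by 0.70 ± 0.13 (adjusted p = 2.71e-04) after 4 h and by 0.82 ± 0.13 (adjusted p = 3.09e-05) after 24 h. The third 24 h library was lower than the other 2 but above all 0 h libraries. Its call at 8 h (adjusted p = 0.00443) was lost in 10 of 24 alternative settings. Dtymk, which phosphorylates thymidylate, was at 308, 311 and 219 CPM at 24 h, against 251, 259.6 and 270.5 CPM at 0 h, and Dut, which removes dUTP, at 314, 308 and 206 CPM at 24 h, against 292, 306 and 317 CPM at 0 h. Neither Dtymk nor Dut was called at any time (Dut at 24 h, -0.14 ± 0.12, adjusted p = 0.287). In both, the third 24 h library lay below all 0 h libraries; the other 24 h libraries lay above them for Dtymk and within their range for Dut.

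The 4 deoxynucleoside kinases, which return deoxynucleosides to the dNTP pool, were all called higher at 24 h, where 30.7% of all tested genes rose. The call of Tk2 was not stable, as given below. Dck, the deoxycytidine kinase, was at 265, 277 and 267 CPM at 0 h, 439, 452 and 461 CPM at 2 h and 447, 439 and 429 CPM at 4 h. It was at 508, 496 and 509.6 CPM at 8 h and 508, 497 and 473 CPM at 24 h. Most of its rise was thus present at 2 h, with 0.74 ± 0.054 (adjusted p = 2.01e-07) at 2 h and 0.87 ± 0.054 (adjusted p = 1.18e-09) at 24 h. Its mitochondrial relative Dguok, the deoxyguanosine kinase, rose later and was at 13.03, 13.9 and 13.8 CPM at 0 h, 11.9, 11.9 and 12.9 CPM at 2 h and 16.6, 19.2 and 17.3 CPM at 4 h. It was at 22.0, 24.5 and 27.3 CPM at 8 h and 33.0, 32.6 and 29.5 CPM at 24 h. Its change was 1.22 ± 0.091 (adjusted p = 8.41e-09) at 24 h. Tk1, the cytosolic thymidine kinase, was at 219, 214 and 168 CPM at 24 h, against 121, 128 and 125 CPM at 0 h (0.68 ± 0.087, adjusted p = 3.96e-06). Its mean was highest at 4 h (215 ± 15.1 CPM, SD, n = 3), but the first and second 24 h libraries were near that level and only the third was lower. Tk2, the mitochondrial thymidine kinase, was at 10.1, 12.2 and 9.35 CPM at 24 h, against 8.86, 6.28 and 7.44 CPM at 0 h. Its change of 0.48 ± 0.14 (adjusted p = 0.00652) was lost in 14 of 24 alternative settings.

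Genes of S phase, when dNTPs are used for DNA synthesis, were measured beside the deoxynucleotide genes. Of 18 genes of replication and S phase (among them Pcna, the Mcm helicase subunits and Slbp), 9 were higher and none lower at 2 h against 0 h, 11 higher and 1 lower at 4 h, 9 higher and 3 lower at 8 h, and 7 higher and 3 lower at 24 h. Over all tested genes 6.6%, 18.1%, 25.3% and 30.7% were higher at these times and 8.59%, 19.9%, 25.1% and 28.1% lower, so that the count of rises at 24 h was close to the background. Their summed level lay in the range 6325-6451 CPM at 0 h, 7418-7697 CPM at 2 h and 7812-8201 CPM at 4 h. It lay in the range 6989-7166 CPM at 8 h and 6577-7752 CPM at 24 h. The sum was highest at 4 h, as was Rrm1, whereas Rrm2 and Dguok were highest at 24 h. The part of the cell cycle in the rise of Rrm2, Tyms, Tk1 and the other deoxynucleotide genes was not tested.

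**Figure D3:**
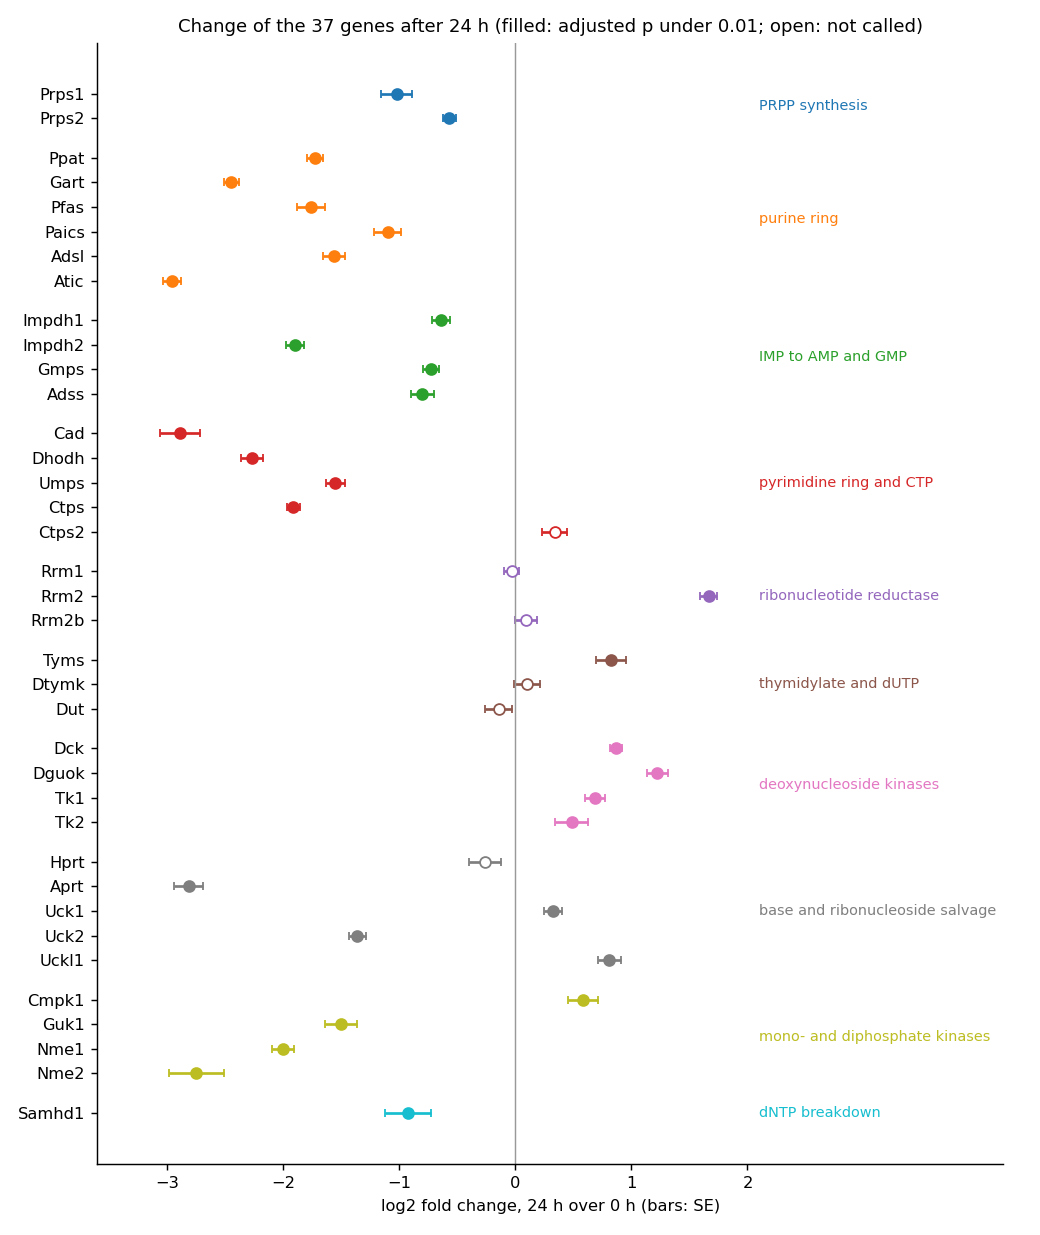
Log2 fold change of the 37 genes at 24 h over 0 h on the x axis, by gene on the y axis and grouped by role in colour; bars are standard errors, filled points passed an adjusted p of 0.01 and open points did not. The points of PRPP, ring, GMP, AMP and CTP synthesis lie left of 0 apart from Ctps2, and no called point of the 3 deoxynucleotide groups does.

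Of the 5 genes of base and ribonucleoside salvage, 2 were lower, 2 higher and 1 not called at 24 h. Over all tested genes 28.1% were lower and 30.7% higher, so these few genes do not set salvage apart. Aprt, which salvages adenine, was at 91.3, 93.1 and 95.4 CPM at 0 h, 76.9, 79.3 and 75.3 CPM at 2 h and 62.9, 56.0 and 59.5 CPM at 4 h. It was at 24.8, 23.9 and 23.2 CPM at 8 h and 14.9, 15.3 and 9.62 CPM at 24 h. Its change was -1.31 ± 0.12 (adjusted p = 1.73e-06) between 4 and 8 h, and it was at 14.2% of its 0 h level at 24 h (-2.81 ± 0.12, adjusted p = 1.97e-11). Hprt, which salvages hypoxanthine and guanine, was at 214, 218 and 135 CPM at 24 h, against 213, 235 and 230.3 CPM at 0 h and was not called at any time (-0.26 ± 0.14, adjusted p = 0.104 at 24 h). At 24 h the third Hprt value was far under the other 2, and the groups overlapped. Uck2, a uridine-cytidine kinase, was at 646, 659 and 629.9 CPM at 0 h, 483, 481 and 480.3 CPM at 2 h and 239.8, 215 and 218 CPM at 4 h. It was at 258, 231 and 228 CPM at 8 h and 243, 238 and 273 CPM at 24 h. It thus reached its low level at 4 h (-1.52 ± 0.071, adjusted p = 1.12e-10). Uck1 was at 66.0, 67.0 and 55.1 CPM at 24 h, against 48.9, 49.3 and 52.2 CPM at 0 h (0.32 ± 0.075, adjusted p = 0.00132), a small rise that was lost in 5 of 24 alternative settings. Uckl1 was at 18.8, 19.1 and 24.3 CPM at 24 h, against 12.6, 12.2 and 10.7 CPM at 0 h (0.81 ± 0.10, adjusted p = 3.42e-06), with no overlap.

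Of the kinases that carry nucleoside monophosphates to triphosphates, 3 fell and 1 rose at 24 h, beside 28.1% and 30.7% of all tested genes. Nme1, a nucleoside diphosphate kinase, was at 84.9, 93.6 and 87.1 CPM at 0 h, 72.5, 71.1 and 71.6 CPM at 2 h and 68.5, 67.0 and 67.9 CPM at 4 h. It was at 34.9, 36.3 and 35.4 CPM at 8 h and 23.1, 25.4 and 17.9 CPM at 24 h. It fell late, between 4 and 8 h (-0.93 ± 0.093, adjusted p = 4.12e-06) and again to 24 h (-0.68 ± 0.094, adjusted p = 3.36e-05). Nme2, its neighbour, was at 0.572, 0.710 and 0.301 CPM at 24 h, against 3.59, 3.22 and 3.88 CPM at 0 h and fell in the last step (-2.50 ± 0.24, adjusted p = 1.02e-06 at 24 h against 8 h). Both genes share exons with an annotated readthrough gene (418 bases of Nme1 and 573 of Nme2) to which 1 count was assigned in all libraries together, so the levels of both, and of the low Nme2 above all, are uncertain. In all, 13 of the 37 genes share exon bases with another annotated gene (Ppat, Paics, Gart, Pfas, Impdh2, Umps, Rrm2b, Tk1, Uck1, Uck2, Uckl1, Nme1 and Nme2). Guk1, the guanylate kinase, averaged 29.7 CPM at 24 h and 84.4 CPM at 0 h (-1.50 ± 0.14, adjusted p = 1.03e-07). Cmpk1, which phosphorylates CMP and UMP, was at 138, 131 and 89.9 CPM at 24 h, against 73.0, 83.3 and 83.2 CPM at 0 h (0.58 ± 0.13, adjusted p = 9.51e-04). Cmpk1 was the member of this group that rose, and its call was lost without the first 24 h library. Samhd1, which breaks dNTPs down, was low throughout, at 1.21, 1.86 and 1.87 CPM at 24 h, against 3.28, 3.10 and 3.01 CPM at 0 h (-0.92 ± 0.20, adjusted p = 6.34e-04).

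Ratios between related enzymes do not depend on the scaling between libraries, so 8 pairs were compared within each library in the deposited TPM, a level per transcript length. In 7 of the 8 pairs the 24 h and 0 h libraries did not overlap, and the exact permutation test (two-sided, 3 against 3) gave 0.1, the smallest p it allows, so none can pass 0.05. How many other gene pairs separate in this way was not counted. Over all tested genes 28.1% fell and 30.7% rose at 24 h, so the 7 do not set these pairs apart. Ctps was 1.65 times Ctps2 at 24 h, against 7.82 times at 0 h, a difference in log2 ratio of -2.25. Uck2 was 2.02 times Uck1 at 24 h, against 6.48 times at 0 h (-1.68). In both pairs the gene that led at 0 h lost most of its lead. Impdh2 was 0.669 times Impdh1 at 24 h, against 1.60 times at 0 h (-1.26), so that the order of the pair turned round. Rrm2 was 162.5 times Rrm2b at 24 h, against 54.5 times at 0 h (1.58). Nme1 was 15.5 times Nme2 at 24 h, against 8.72 times at 0 h (0.83), with the doubt about Nme2 given above. The other changes were smaller: Prps2 was 0.481 times Prps1 at 24 h, against 0.344 times at 0 h (0.48), and Dck was 18.9 times Dguok at 24 h, against 24.2 times at 0 h (-0.35). The Tk1 to Tk2 ratio was 13.05 at 24 h and 11.5 at 0 h (0.18, exact permutation p = 0.4). The pairs differed in timing as well, with the mean log2 ratio of Ctps to Ctps2 at 2.97, 2.32, 1.10, 0.31 and 0.72 over 0, 2, 4, 8 and 24 h and that of Impdh2 to Impdh1 at 0.68, 0.73, 0.86, 0.43 and -0.58.

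**Figure D4:**
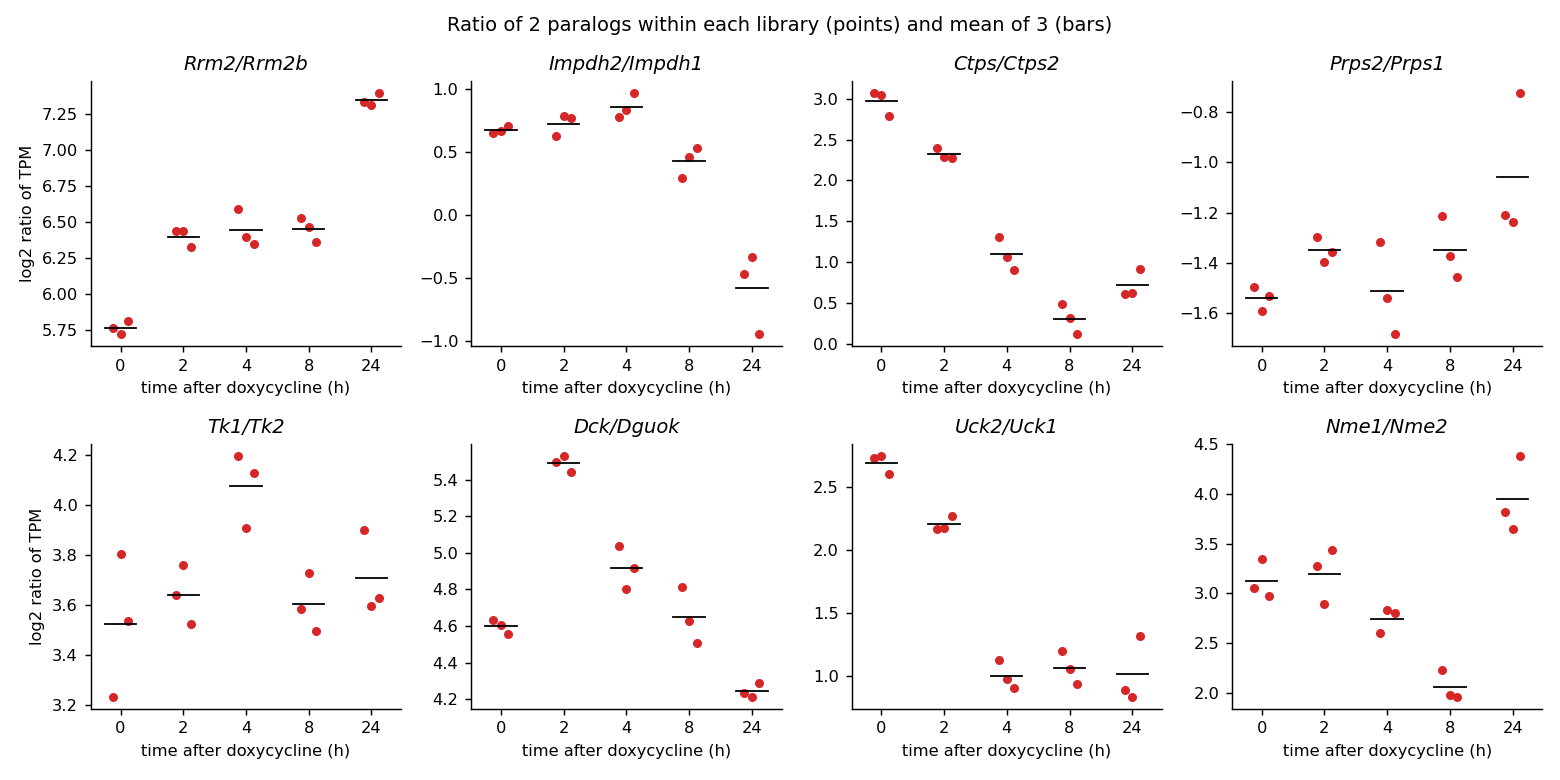
Log2 ratio of the deposited TPM of related genes within each library (y axis, scaled to each panel) by hours after doxycycline (x axis, evenly spaced); points are libraries and bars the mean of 3. The ratio of Ctps to Ctps2 falls to 8 h, that of Uck2 to Uck1 to 4 h, and that of Impdh2 to Impdh1 passes below 0 at 24 h.

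In TPM the order of the levels changed. Rrm2 (496 TPM) and Paics (491 TPM) were the most abundant of the 37 at 0 h, followed by Hprt (460 TPM), Gart (341 TPM) and Dut (332 TPM), and Samhd1 (0.897 TPM) was the lowest. At 24 h Rrm2 led (1996 TPM), followed by Hprt (484 TPM), Dck (435 TPM), Dut (379 TPM) and Dtymk (352 TPM). Gart had 79.5 TPM and Paics 290 TPM then. Neighbours in these orders were not tested against each other. The 37 genes together took 0.773% to 0.792% of all counts at 0 h, 0.587% to 0.608% at 8 h and 0.751%, 0.748% and 0.635% at 24 h. As a share of TPM, 24 h was at 0.574% to 0.628%, against 0.575% to 0.591% at 0 h, so that the direction of this total depended on the unit.

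Related genes outside the 37 were counted by list. Of 6 genes of folate carbon supply, which provides carbons for the purine ring and for thymidylate, 5 fell and none rose at 24 h against 0 h (median log2 fold change -2.30): Shmt1 (-3.67), Mthfd1 (-3.08), Shmt2 (-3.04), Mthfd1l (-1.57) and Mthfd2 (-1.19). Of 10 tested nucleotide kinases, 7 fell and none rose, with Nme4 (-3.28), Ak5 (-1.96) and Ak4 (-1.68) the largest. Of 9 tested salvage enzymes and partners of PRPP synthetase, 5 fell and none rose: Dctd (-3.95), the dCMP deaminase, Mtap (-2.64), which frees adenine from methylthioadenosine, Adk (-1.11), Uprt (-1.09) and Prpsap1 (-0.92). Mean Dctd was 2.70 CPM at 24 h, against 41.7 CPM at 0 h. These lists, like the 37 genes, stand beside 28.1% of all tested genes that fell and 30.7% that rose.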

How the data were processed

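PolyA RNA was sequenced from 15 T-ALL libraries, grouped by the time in their labels. Per the submitters' processing notes, cutadapt 1.16, STAR 2.5.4b and featureCounts were used with build mm10; strand setting and annotation release were not found in the labels or methods. The authors deposited raw counts per gene, which were tested, and TPM, which the authors computed per length and which were used for ratios and orders of level. Deposited FPKM were not used.

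Counts were tested with edgeR 4.0.16 (R 4.3.3): filterByExpr on the 5 times, TMM, glmQLFit with 1 mean per time and no replicate block, glmQLFTest, Benjamini-Hochberg over 14485 genes, called at an adjusted p under 0.01. The standard error is the log2 fold change over the root of F. The test was checked on simulated counts for the 0 h and 24 h libraries alone, with the same spread for all genes and no library set apart. That check thus does not cover data in which a library stands apart, as the third 24 h library does here. A count of 3, set here as the floor, is 0.111 to 0.116 CPM. Ratios used exact permutation tests (scipy 1.17.1). Names and positions came from GENCODE M21 on GRCm38 (mm10), where 53274 of 53379 gene IDs had a symbol, and promoter windows from RefSeq.

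All 37 genes are accounted for. Values per library are given for the genes with the largest and smallest change of each role at 24 h, those against their group, those called at 2 h and both of each related pair; other lists are given by counts and up to 4 genes, or by all where 5 or fewer passed, except that a few genes of these lists are not reported here. The members and lists were chosen with earlier results of these data known. Alternatives were RLE, library totals and upper-quartile scaling, no filter, a minimum of 10 counts in every library, DESeq2 1.42.0, only the times compared, an adjusted p under 0.05, a replicate block and leaving out each library. The replicate numbers carry no stated meaning. Deviations from the time means correlated positively in all 18 same-numbered pairs among 0, 2, 4 and 8 h (r = 0.0031 to 0.54) and in 11 of 36 pairs with other numbers (-0.48 to 0.15). Of the comparisons with 0 h and between neighbouring times, each pair exceeded 0.1 in 8 h against 4 h alone (0.54, 0.20 and 0.42). The 0 to 8 h libraries were therefore also fitted alone, with and without a replicate block, an alternative chosen after seeing the data.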

Additional observations from a re-analysis of the deposited data

How the results depend on the processing

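Across the 24 settings, 155 tested changes of the named genes gave 3718 values. The 155 were the changes called in the fit of all libraries, all changes at 24 h against 0 h and some other named ones. Most changes not called at the earlier times, which could gain a call, were thus left out, and the gained calls below are too few. Of these 3588 kept direction and call, 107 lost the call, 14 gained it and 9, all of genes not called at 24 h, changed sign. All 22 falls at 24 h held under each setting in which the gene was tested; with at least 10 counts in every library 21 remained, since Nme2 was not tested there. The 2 h falls were the most dependent on the fit: 8 genes fell, against 14 at an adjusted p under 0.05, 13 with DESeq2 and 18 with 0 h and 2 h fitted alone. Over all genes the falls were 1244, 1898, 1900 and 2872 in the same order. A fit of the compared times alone gave 5 rises at 4 h against 2 h, and 1 rise and 4 falls at 24 h against 8 h, and library totals gave 10 rises in that step. At 4 h against 0 h, upper-quartile scaling gave 9 rises and 17 falls.

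Leaving out 1 library gave 2 to 4 rises and 6 to 18 falls at 2 h against 0 h, 5 to 10 rises at 4 h, 5 to 11 rises at 8 h (5 without the second 0 h or the third 8 h library) and 6 to 11 rises at 24 h. It gave 2 to 5 rises at 4 h against 2 h, 0 to 3 rises and 11 to 18 falls at 8 h against 4 h (0 rises without the first 4 h or the third 8 h library, 1 without the third 4 h or the second 8 h library) and 5 to 13 rises at 24 h against 8 h. The upper ends came from leaving out the third 24 h library. Counts over all genes were then higher too, with 2180 falls at 2 h (1244 with all libraries) and 2126 falls at 8 h against 4 h (1010). The cause of these shifts was not tested.

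Some genes that were not called at 24 h changed sign. With library totals Rrm1 was at 0.24, Dut at 0.13 and Hprt at 0.013, and with upper-quartile scaling Rrm1 was at 0.11. Leaving out 1 library put Rrm1 between -0.12 and 0.031, Rrm2b between -0.012 and 0.20, Dtymk between -0.021 and 0.25 and Dut between -0.29 and 0.031. A pseudocount of 0.5 TPM put the difference in the Dck to Dguok log2 ratio at -0.30, and in TPM the share of the 37 genes was higher at 24 h than at 0 h by 0.0275 percentage points. Among all genes, library totals gave 6361 rises and 2855 falls at 24 h (TMM: 4443 and 4076) and 1173 rises and 968 falls at 2 h (956 and 1244), and upper-quartile scaling gave 3581 and 2419 at 4 h (2629 and 2883) and 4944 and 2847 at 8 h (3665 and 3634). For 24 h against 8 h the counts were 4636 and 1596 by library totals and, in a fit of these times alone, 795 and 1137 (TMM over all times: 3014 and 2506), and 0 h and 2 h fitted alone gave 2325 rises and 2872 falls.

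Over all 5 times, same-numbered libraries did not deviate together throughout (r = -0.60 to 0.54, other numbers -0.48 to 0.55); the negative same-number values were all in pairs with 24 h. A replicate block in this fit gave 7 falls and 3 rises at 2 h against 0 h, 19 and 6 (4 h), 21 and 7 (8 h), 22 and 8 (24 h). A fit of the 0 to 8 h libraries, chosen after seeing the data, gave 18 falls and 4 rises at 2 h, with or without the block. At 4 h it gave 20 falls and 10 rises with the block (19 and 8 without), at 8 h 22 and 11 (22 and 10), and at 4 h against 2 h 18 and 7 (18 and 4). Cad at 2 h passed in both fits (-0.58 each). Depth limits Samhd1, Nme2 and Tk2, the genes with the lowest counts.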

Other observations

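Nucleotide breakdown and interconversion genes were mixed at 24 h against 0 h, with 5 of 14 tested genes higher and 4 lower, beside 30.7% and 28.1% of all. Ampd1, an AMP deaminase, averaged 15.3 CPM at 24 h and 2.79 CPM at 0 h (2.45 ± 0.14, adjusted p = 2.61e-10), whereas Ampd2, its paralog, averaged 54.8 CPM at 24 h and 143 CPM at 0 h (-1.38 ± 0.14, adjusted p = 3.65e-07). Gmpr, which turns GMP back to IMP, rose at a low level (3.03 CPM at 24 h and 0.724 CPM at 0 h, 2.06 ± 0.30, adjusted p = 1.99e-05), as did Xdh, which makes uric acid (1.93 CPM at 24 h and 0.696 CPM at 0 h, 1.46 ± 0.26, adjusted p = 1.14e-04).

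Of 4 tested nucleoside transporters, 2 fell: Slc29a2, an equilibrative transporter (0.425 CPM at 24 h and 8.27 CPM at 0 h, -4.27 ± 0.19, adjusted p = 1.70e-11), and Slc29a1 (411 CPM at 24 h and 612 CPM at 0 h, -0.57 ± 0.08, adjusted p = 1.05e-05). Of 7 enzymes that clear abnormal nucleotides from the pool, 4 fell (among them Dctpp1 at -1.80, Nudt5 at -0.88 and Itpa at -0.59) and 1 rose (Nudt18 at 0.75). Both lists stand beside 28.1% of all tested genes that fell and 30.7% that rose.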
